A study of Mus musculus with 45 samples.

Results

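Late serum embryoid bodies (EBs), at day 5 and day 7 of differentiation, were compared with early ones, at day 1 and day 1.5. The comparison took 4 late and 4 early libraries, 8 of the 45 samples of the series, and each stage held 2 libraries from each of 2 starting media. All cells were wild-type male mouse embryonic stem cells (ESCs) of the line E14tg2a, on a 129/Ola background. They had been kept either in 2iL, which is serum-free N2B27 medium with the Mek inhibitor PD0325901, the Gsk3 inhibitor CHIR99021 and the cytokine LIF, or in SL, which is serum with LIF. EBs are aggregates that form in suspension, here in serum without LIF. Total RNA was depleted of ribosomal RNA and sequenced with strand information. Each medium and day gave 1 library of 1 cell line. The 2 days of a stage and the 2 media therefore stood in as replicates. In the main test the medium was a block, which takes out a constant difference between media. Its p-values measure the spread between days and any difference in change between media, not the spread of independent repeats. The 6 EB libraries of day 2, 2.5 and 3 were used to time the changes, and ESCs (day 0) are given as values only. For comparison with other routes, 7 libraries of monolayers in N2B27 with Fgf2 and Activin A (FA) and 8 of monolayers in N2B27 alone, at the same 4 days, were used.

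Naive ESCs correspond to the epiblast of the blastocyst before implantation and are held by a network of transcription factors. When that network is released the cells pass through a formative epiblast state and then take up lineage fates. In EBs in serum, Bmp, Wnt and Nodal signals turn part of the epiblast into a primitive-streak-like population, from which mesoderm and definitive endoderm arise, while an outer layer of primitive or visceral endoderm forms early. EBs are therefore mixtures, and in bulk RNA fewer cells of a type and less RNA per cell cannot be told apart.

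Total counts of the 8 libraries ran from 15204005 to 39804240. They were higher from 2iL (33120740 to 39804240) than from SL (15204005 to 20169493), while early and late libraries overlapped in depth. The 10 most abundant genes took 8.65% to 16.9% of the counts. Levels below are CPM, counts scaled to the size of each library after TMM normalisation, and compare libraries, not genes of different length. Levels far below 1 CPM rest on few reads, so the size of a change from them is imprecise. Of 35372 genes, 15345 passed the filter on low counts and 20027 did not, of which 13731 had no count in any of the 8 libraries. With the medium as a block, 4461 of the genes tested were higher in late EBs at an adjusted p under 0.05 (29.1%) and 4124 were lower (26.9%), so 55.9% of all genes tested passed the test. Any list of genes is to be read against these shares, and the lists were chosen with earlier results of these data known. Of the genes called, 2865 rose by log2 1 or more and 708 by log2 3 or more, against 1872 and 714 that fell by as much, and the median change was 1.36 for the genes called higher and -0.89 for those called lower (log2 scale). Over all genes tested the median was 0.03. The 4 late libraries all lay above the 4 early ones in 25.4% of genes tested and all below in 25.5%. Protein-coding genes made up 4319 of the genes called higher and 3861 of those called lower, and long non-coding RNAs 89 and 154. The plot of calls by gene list sets each list beside the shares over all genes.

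**Figure D1:**
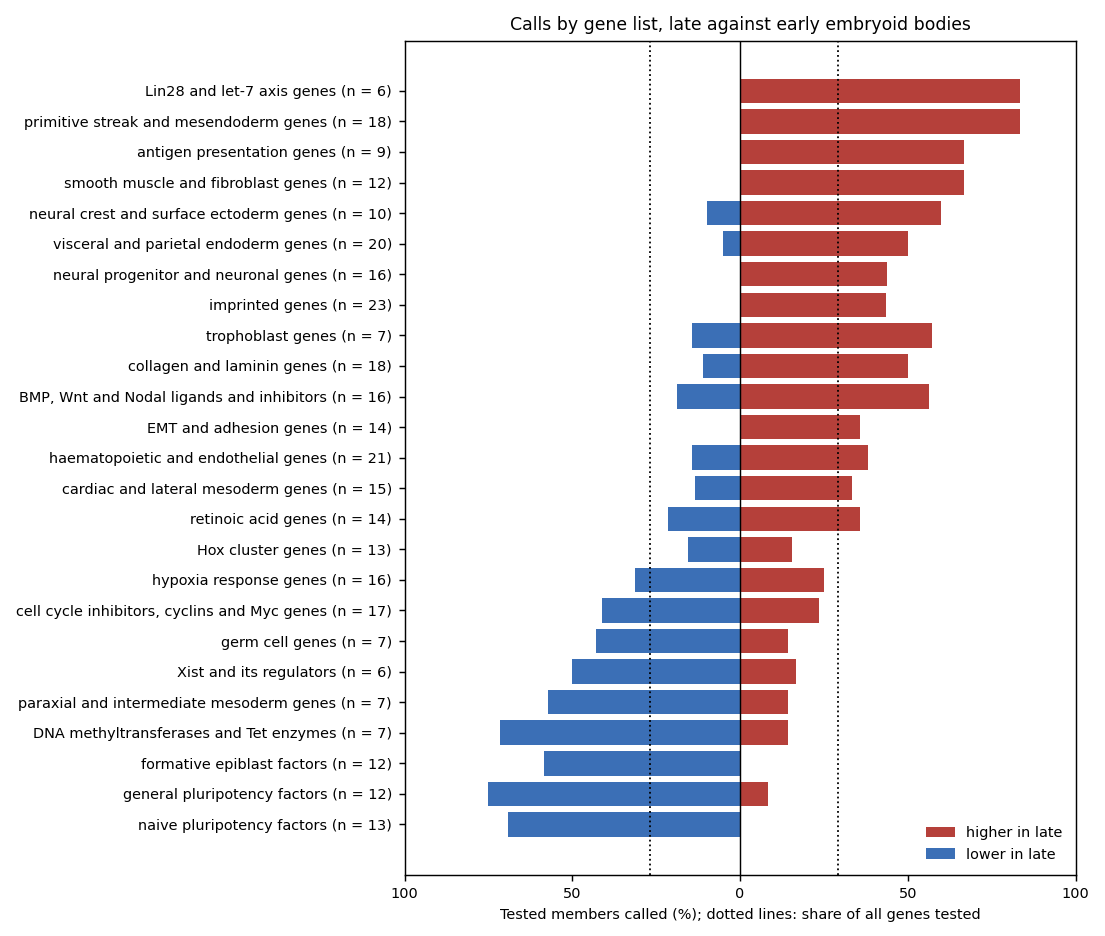
Percent of the tested members of each gene list called higher (to the right) and lower (to the left) in late than in early EBs, for lists with at least 6 tested members. Dotted lines mark the shares over all genes tested, 29.1% higher and 26.9% lower. The streak list reaches 83.3% called higher and 0 called lower, and the general pluripotency list 75.0% called lower. The lists were chosen with earlier results of these data known.

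Genes of the naive network were mostly lower in late EBs. Of 13 naive pluripotency factors, 9 fell, 0 rose and 4 did not pass the test, with a median log2 change of -2.29. Zfp42 (Rex1), a zinc finger protein used as a marker of naive cells, lies on chromosome 8, 43295063 to 43306980 (GRCm38). It was at 321 (2iL d1), 75.7 (2iL d1.5), 231 (SL d1) and 103 CPM (SL d1.5) early and at 3.3 (2iL d5), 2.29 (2iL d7), 11 (SL d5) and 18.3 CPM (SL d7) late. The 2 groups did not overlap, and the change was -4.77 ± 0.77 (log2, SE; adjusted p = 0.00158). Esrrb, an orphan nuclear receptor of the network, fell from 79.5 to 249 CPM early to 4.42 to 22.8 CPM late (log2 change -3.88, adjusted p = 0.00118). Fgf4, the ligand that drives the Erk signal out of naive pluripotency, stayed between 109 and 223 CPM from day 1 through day 3 and then dropped to 5.94 (2iL d5), 2.24 (2iL d7), 14.8 (SL d5) and 9.24 CPM (SL d7), a log2 change of -4.82 ± 0.45 (adjusted p = 2.30e-04). Nr0b1 (Dax1), a nuclear receptor that binds Oct4, lies on chromosome X, 86191764 to 86195947. It had gone up on leaving 2iL, from 42.6 CPM in ESCs to 227 CPM at day 1, and by day 7 was at 0.154 (2iL) and 1.2 CPM (SL), with a log2 change of -7.40 ± 0.86 (adjusted p = 4.37e-04).

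Nanog, the homeobox factor at the core of naive pluripotency, was among the 4 naive factors that did not pass the test. From 2iL it went from 954 CPM in ESCs to 174 (d1) and 69 (d1.5), came back to 260 CPM at day 5 and was at 49.9 CPM at day 7. From SL it was at 141 (d1), 83.3 (d1.5), 107 (d5) and 72.4 CPM (d7), and the late and early groups overlapped. Late against early gave a log2 change of 0.03 ± 0.52 (adjusted p = 0.964), while day 7 against day 1 alone gave -1.37 (adjusted p = 0.0286). Day 5 was thus the highest day after day 1 in both media.

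Of 12 general pluripotency factors, 9 fell, 1 rose and 2 did not pass the test. Dppa5a, an RNA-binding protein of pluripotent cells, was at 786, 664, 650 and 700 CPM early (2iL d1, 2iL d1.5, SL d1, SL d1.5) and at 19.7, 11.9, 48.8 and 47.5 CPM late (2iL d5, 2iL d7, SL d5, SL d7), a log2 change of -4.65 ± 0.40 (adjusted p = 1.82e-04). Dppa2 (-5.64) and Dppa4 (-4.30), a pair of chromatin proteins that work together, fell with it. Sox2, a partner of Oct4 that neural progenitors also use, fell less, from 185 to 241 CPM to 39.8 to 95.1 CPM (log2 change -1.53, adjusted p = 0.00124). Pou5f1 (Oct4) was held longer. It was at 545 (2iL) and 407 CPM (SL) at day 5, against 526 to 703 CPM early, and only the day 7 libraries were low, at 74.2 and 132 CPM. The log2 change of -1.09 ± 0.57 did not pass the test (adjusted p = 0.139). Sall4, a zinc finger factor, stayed between 349 and 485 CPM in all 8 libraries (log2 change 0.16, adjusted p = 0.29). L1td1, an RNA-binding protein of pluripotent cells, fell by 2.35 on the log2 scale (adjusted p = 0.0224), a call lost without the SL day 7 library (adjusted p = 0.0541).

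Formative factors, which mark the step from naive to primed epiblast, had 7 of 12 members lower, 0 higher and 5 not called. Fgf5, the classical epiblast marker, climbed from 22.5 and 12 CPM at day 1 to 96.2 and 70.3 CPM at day 5 and was back at 10.1 and 33.8 CPM at day 7 (2iL and SL). Otx2, an epiblast and later forebrain homeobox factor, stayed between 43.2 and 121 CPM across the 8 libraries. Neither passed the test (adjusted p = 0.302 and 0.914). Pou3f1 (Oct6) went from 59.9 to 124 CPM early to 8.31 to 46.5 CPM late (log2 change -1.85, adjusted p = 0.0157). Grhl2, which activates epithelial enhancers in the epiblast, fell from 123 to 159 CPM to 13.6 to 31.7 CPM (log2 change -2.54, adjusted p = 3.81e-04). Etv4, a target of Erk signalling, fell by 1.92 on the log2 scale (adjusted p = 0.00258). Foxd3 passed the test in the full set (log2 change -1.92, adjusted p = 0.0494) but not in 5 of the 8 fits that each left out 1 library (adjusted p 0.0812 to 0.0998).

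**Figure D2:**
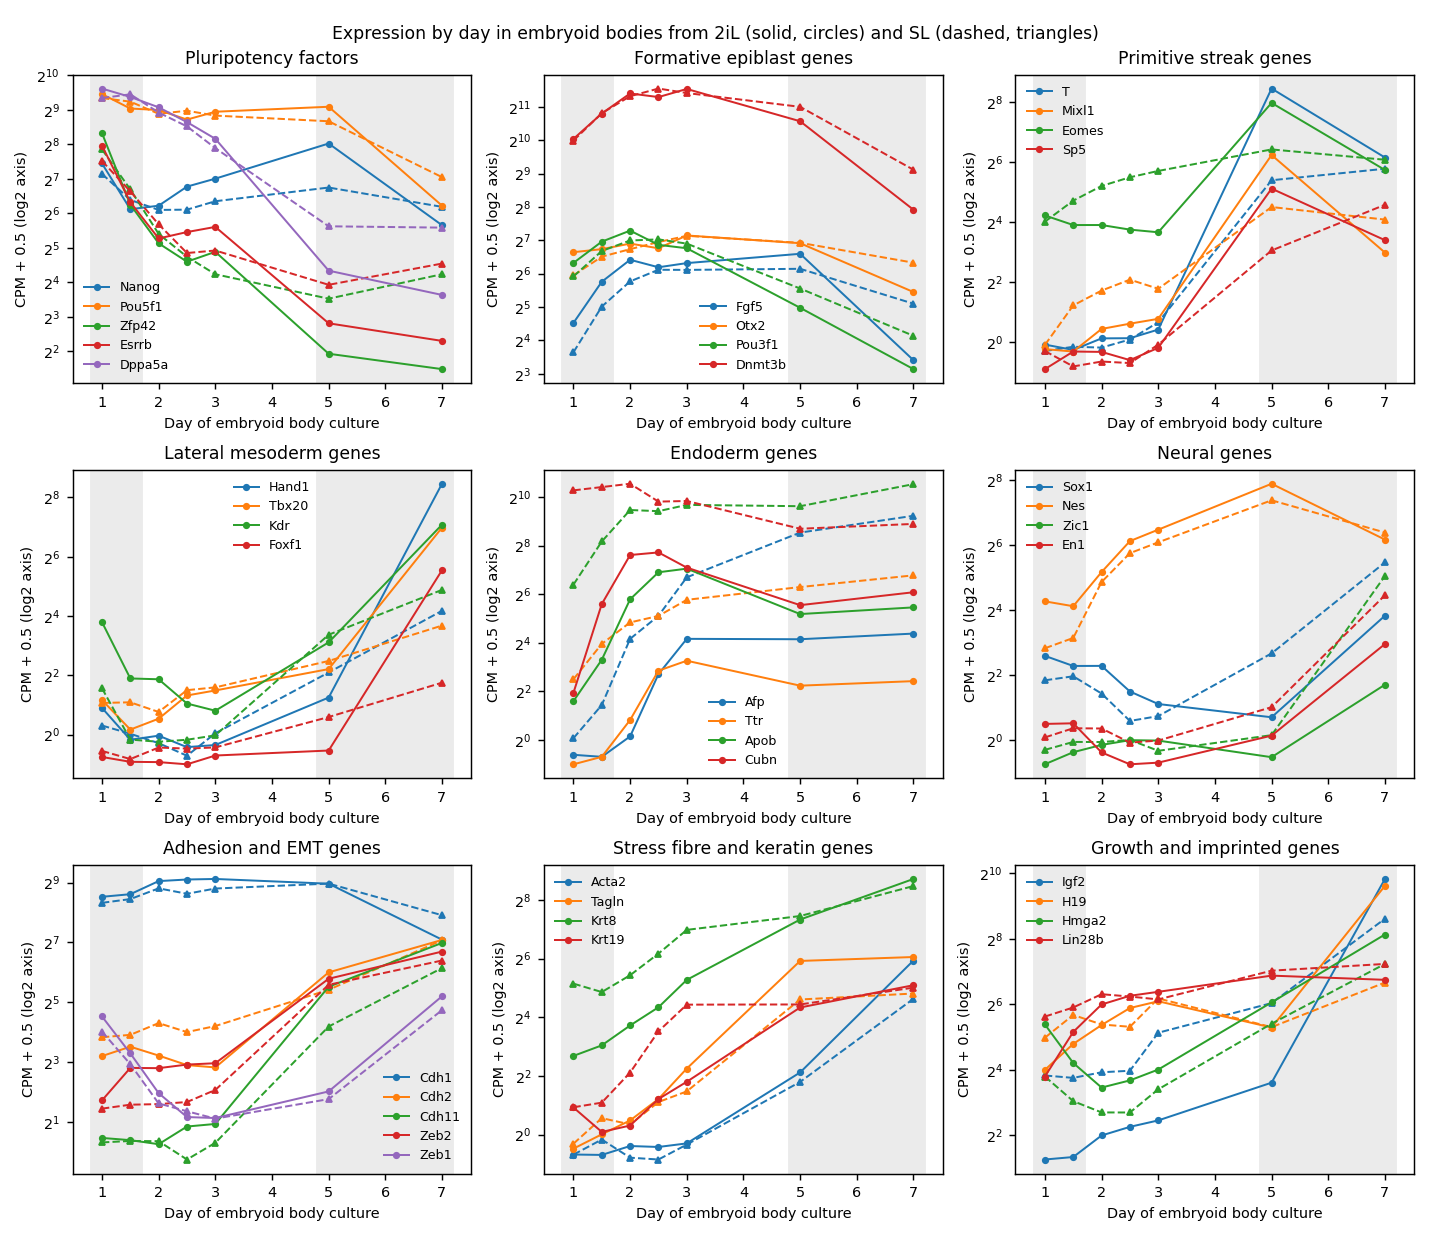
Levels of genes of 9 groups (CPM + 0.5 on a log2 axis) by day of EB culture, from day 1 to day 7, with solid lines for EBs from 2iL and dashed lines for EBs from SL; each point is 1 library and grey bands mark the early and late days. T stays near 0 from day 1 through day 3 and is at 350 CPM (2iL) and 41.5 CPM (SL) at day 5. Zfp42 is below its day 1 level on every later day in both media, with small rises at 2iL day 3 and SL day 7.

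Primitive streak and mesendoderm genes were higher in late EBs. Of 18 members 15 rose, 0 fell and 3 did not pass the test, with a median log2 change of 4.22. In all 15 the late libraries lay above the early ones, as they did in 3745 of the 4461 genes called higher. T (Brachyury), the T-box factor of the streak and the early mesoderm, lies on chromosome 17, 8434423 to 8442496. It was at 0.437 (2iL d1), 0.328 (2iL d1.5), 0.307 (SL d1) and 0.391 CPM (SL d1.5) early and at 350 (2iL d5), 70.6 (2iL d7), 41.5 (SL d5) and 54.3 CPM (SL d7) late. In the ESCs T had been at 4.95 (2iL) and 0.106 CPM (SL), and at day 3 it was still at 0.826 (2iL) and 1.07 CPM (SL). The rise was 359-fold, a log2 change of 8.49 ± 0.73 (adjusted p = 1.85e-04). Mixl1, a homeobox factor of the streak, reached 74.8 CPM at 2iL day 5 and 7.38 to 22.1 CPM in the other late libraries, from 0.298 to 1.82 CPM early (log2 change 5.52, adjusted p = 0.00263). Eomes, a T-box factor of mesendoderm, was present early, at 14.4 to 25.7 CPM, and rose to 52.8 to 251 CPM (log2 change 2.58, adjusted p = 0.00424). From 2iL these 3 genes were highest at day 5 and lower at day 7, whereas from SL T was slightly higher at day 7.

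Mesp1, a bHLH factor of the earliest heart-forming mesoderm, was at 0 to 0.0936 CPM early and at 7.06 (2iL d5), 8.41 (2iL d7), 2.83 (SL d5) and 1.92 CPM (SL d7) late (log2 change 6.54, adjusted p = 2.93e-04). Sp5, a zinc finger factor and a direct target of Wnt signalling, is on chromosome 2, 70474923 to 70477729. It had been at 30 CPM in 2iL ESCs, where the Gsk3 inhibitor activates that pathway, was at 0.0312 to 0.307 CPM early and reached 34.1 (2iL d5), 10 (2iL d7), 7.77 (SL d5) and 23.3 CPM (SL d7), a log2 change of 6.75 ± 0.79 (adjusted p = 4.46e-04). Cer1, a secreted inhibitor of Nodal, Bmp and Wnt made by anterior visceral endoderm and definitive endoderm, rose from 0 to 0.26 CPM to 5.85 to 11.1 CPM (log2 change 7.07, adjusted p = 4.17e-04) and, unlike T, was already at 9.5 CPM at SL day 3. Msgn1, a presomitic mesoderm factor named here after its values were seen, had no count in any early library and 0.335 to 1.02 CPM late.

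Wnt signalling, which runs through Tcf/Lef factors, is a known inducer of streak genes. The 250 bases upstream of the RefSeq start of the list members were therefore read from the GRCm38.p6 tables and searched on both strands for CTTTGA, the core of the Tcf/Lef motif (TCAAAG on the other strand). T, Sp5, Mesp1 and Msgn1, 4 of the 15 list members with a window, held a match (26.7%), beside 13.8% of 32851 windows in the table. They are shown because they hold a match and were near 0 from day 1 through day 3, and a match is letters only, not a measured site. The windows are chr17:8434173-8434422 (+) for T, chr2:70474673-70474922 (+) for Sp5, chr7:79793591-79793840 (-) for Mesp1 and chr12:11208949-11209198 (-) for Msgn1. Each reads 5′ to 3′ on the gene's strand, with the matches in capitals:
T: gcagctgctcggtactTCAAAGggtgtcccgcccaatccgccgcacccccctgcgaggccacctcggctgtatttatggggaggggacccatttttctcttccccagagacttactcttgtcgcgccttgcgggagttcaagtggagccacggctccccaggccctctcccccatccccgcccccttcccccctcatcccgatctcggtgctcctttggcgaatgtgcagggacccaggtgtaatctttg
Sp5: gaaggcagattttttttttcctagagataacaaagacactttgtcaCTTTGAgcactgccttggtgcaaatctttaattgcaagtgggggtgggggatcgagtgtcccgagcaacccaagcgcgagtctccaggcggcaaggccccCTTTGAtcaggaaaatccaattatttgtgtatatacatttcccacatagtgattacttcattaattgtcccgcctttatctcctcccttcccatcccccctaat
Mesp1: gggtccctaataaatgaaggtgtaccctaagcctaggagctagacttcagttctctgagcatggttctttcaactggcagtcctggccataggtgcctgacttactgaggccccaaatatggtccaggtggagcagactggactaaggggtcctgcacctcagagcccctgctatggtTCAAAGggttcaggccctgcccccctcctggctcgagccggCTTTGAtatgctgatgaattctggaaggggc
Msgn1: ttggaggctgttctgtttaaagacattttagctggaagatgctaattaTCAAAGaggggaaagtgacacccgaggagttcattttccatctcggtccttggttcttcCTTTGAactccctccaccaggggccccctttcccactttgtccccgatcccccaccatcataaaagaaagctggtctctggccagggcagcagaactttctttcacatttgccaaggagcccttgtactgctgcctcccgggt
Counted from the RefSeq start, the first base of each match lies at -234 in T and at -204 and -104 in Sp5. It lies at -72 and -31 in Mesp1 and at -202 and -143 in Msgn1. In the annotation used for gene positions, Mesp1 runs from 79792241 to 79793788 on chromosome 7. By that annotation the Mesp1 matches lie inside the gene, not upstream of it.

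Among ligands and inhibitors of the Bmp, Wnt and Nodal pathways, 9 of 16 tested members rose, 3 fell and 4 did not pass the test. The Bmp ligands were mostly late to rise. Bmp5 was at 0 to 0.149 CPM early, at 0.665 (2iL) and 0.807 CPM (SL) at day 5 and at 60 and 13 CPM at day 7 (log2 change 8.39 ± 1.94, adjusted p = 0.00753). Bmp2 rose from 0.187 to 1.37 CPM to 2.38 (2iL d5), 29.5 (2iL d7), 6.81 (SL d5) and 14.8 CPM (SL d7). Bmp7 rose from 0.417 to 1.72 CPM to 9.18 to 55.4 CPM (log2 change 4.61, adjusted p = 0.00144). Noggin (Nog), which binds and blocks Bmps, rose with them, from 0.0651 to 0.468 CPM to 0.807 to 11.7 CPM (log2 change 4.58, adjusted p = 0.00964). Bmp4, the ligand that induces streak and posterior mesoderm, was high in 1 late library only, at 54.2 CPM at 2iL day 7 against 2.28 to 6.18 CPM in the other 3 and 2.71 to 10.5 CPM early (log2 change 0.85, adjusted p = 0.545). Cfc1 (Cryptic), a Nodal co-receptor, reached 48.3 CPM at 2iL day 7 and 6.23 CPM at SL day 7, and its call (log2 change 5.48, adjusted p = 0.0135) was lost without either early 2iL library (adjusted p 0.0519 to 0.0523).

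Lateral and cardiac mesoderm genes were divided: 5 of 15 tested members rose (33.3%), 2 fell and 8 did not pass the test, a share of rises close to that over all genes. Hand1, a bHLH factor of lateral and extraembryonic mesoderm, is on chromosome 11, 57828705 to 57832818. It was at 1.37 (2iL d1), 0.388 (2iL d1.5), 0.738 (SL d1) and 0.521 CPM (SL d1.5) early and at 1.88 (2iL d5), 352 (2iL d7), 3.78 (SL d5) and 17.6 CPM (SL d7) late. The 2iL day 7 library stood far above the rest. The log2 change of 6.5 ± 1.81 (adjusted p = 0.0166) was no longer called without either early 2iL library (adjusted p 0.0607 to 0.0618). Foxf1, a factor of splanchnic mesoderm, had the same shape, at 46.2 CPM at 2iL day 7 and 2.87 CPM at SL day 7 from 0.0298 to 0.184 CPM early (log2 change 7.0, adjusted p = 0.0169, 0.0671 to 0.0679 without either early 2iL library). Actc1, cardiac alpha-actin, had no count in the 4 early libraries and was at 8.05 (2iL d5), 8.82 (2iL d7), 3.83 (SL d5) and 3.26 CPM (SL d7) late, so no fold is given (adjusted p = 2.36e-04). Of the defining heart markers, Nkx2-5 was at 0.617 CPM or less and Tnnt2 at 0.463 CPM or less in all 8 libraries, both untested. Myh6, a cardiac myosin, was at 1.6 to 3.94 CPM early and 1.61 to 2.68 CPM late (adjusted p = 0.651), and was higher at days 2.5 and 3 than early (log2 change 0.98, adjusted p = 0.0103) and than late (1.17, adjusted p = 0.00357). Ttn (titin), the giant sarcomere protein, went the other way, from 375 (2iL d1), 931 (2iL d1.5), 347 (SL d1) and 139 CPM (SL d1.5) to 6.94, 3.55, 11 and 8.77 CPM at 2iL d5, 2iL d7, SL d5 and SL d7 (log2 change -5.78 ± 0.69, adjusted p = 4.93e-04).

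Blood and endothelial genes gave 8 of 21 tested members higher (38.1%), 3 lower (14.3%) and 10 not called. Over all genes tested 29.1% were higher and 26.9% lower. Kdr (Flk1), the Vegf receptor that marks haemangioblast mesoderm, was at 13.4 (2iL d1), 3.22 (2iL d1.5), 2.46 (SL d1) and 0.391 CPM (SL d1.5) early and at 8.15 (2iL d5), 135 (2iL d7), 9.84 (SL d5) and 29 CPM (SL d7) late. The groups overlapped, and without the 2iL day 7 library the log2 change fell from 3.40 (adjusted p = 0.0178) to 2.39 (adjusted p = 0.123). Flt1, a second Vegf receptor, rose without overlap from 1.89 to 4.71 CPM to 17.6 to 51.6 CPM (log2 change 3.69 ± 0.43, adjusted p = 4.28e-04). Lmo2, a bridging protein of blood and endothelial transcription complexes, rose from 0.686 to 1.1 CPM to 1.46 to 8.44 CPM (log2 change 2.59, adjusted p = 0.00462). Pecam1 (CD31), an adhesion molecule that ESCs carry as well as endothelium, fell from 29 to 52.4 CPM to 1.71 to 11.4 CPM (log2 change -2.91, adjusted p = 0.00286). Etv2 and Tal1, which open the blood programme, did not pass the test (adjusted p = 0.12 and 0.315), with Tal1 at 19.5 CPM at 2iL day 7 and 0.807 to 4.84 CPM elsewhere late. Of the globins, Hbb-bh1, the embryonic beta chain, reached 3.68 CPM at 2iL day 7 and 0.335 CPM at SL day 7. Hbb-y and Hba-x stayed under 1 CPM, and 8 of the 10 globin and haem genes in the files were untested.

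Of 15 paraxial and intermediate mesoderm genes 8 were too low to test, 2 of them at 1 CPM or more in both day 7 libraries, so the 7 tested do not give a direction for the list. Of those 7, 4 were lower and 1 was higher. Wt1, a zinc finger factor of kidney and mesothelium, was at 53.3, 61.8, 53.2 and 52 CPM early and at 4.59, 1.57, 5.05 and 1.58 CPM late (libraries ordered as for Ttn), after 0.695 and 1.01 CPM in the ESCs (log2 change -4.09 ± 0.43, adjusted p = 3.05e-04). Tcf15, a bHLH factor of somites that is also used in formative epiblast, fell from 17.6 to 33.7 CPM to 0.746 to 1.77 CPM (log2 change -4.41, adjusted p = 1.35e-04). Pax8, a kidney and thyroid factor, fell from 6.12 to 13.4 CPM to 0.19 to 1.96 CPM. Foxc1, a forkhead factor of paraxial and lateral mesoderm, rose from 0 to 0.369 CPM to 1.06 to 11.4 CPM (log2 change 6.02, adjusted p = 0.00415). Meox1, a somite homeobox factor, did not pass the test (adjusted p = 0.133), and Meox2 was untested at under 1 CPM.

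Smooth muscle and fibroblast genes were higher late in 8 of 12 tested members, with 0 lower. Tagln (SM22), an actin-binding protein of smooth muscle, was at 0.218, 0.507, 0.307 and 0.977 CPM early and at 60.2, 66.1, 23.9 and 27.6 CPM late (2iL then SL), a log2 change of 6.5 ± 0.53 (adjusted p = 1.70e-04). Acta2, smooth muscle alpha-actin, came later: 3.85 and 2.98 CPM at day 5 and 60.8 and 24.3 CPM at day 7, from 0.119 to 0.391 CPM early (log2 change 7.03, adjusted p = 0.00272). Cnn1 (calponin) rose and turned back, at 23.5 and 14.9 CPM at day 5 and 10.2 and 3.83 CPM at day 7 (log2 change 3.71, adjusted p = 0.00353). The collagen I chains rose at day 7. Col1a2 reached 19.1 (2iL) and 22.9 CPM (SL), with a log2 change of 4.07 (adjusted p = 0.00643), and Col1a1 58.2 and 6.23 CPM, with a log2 change of 5.51 (adjusted p = 0.0169) that was not called without either early 2iL library (adjusted p 0.0597 to 0.0626).

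Visceral and parietal endoderm genes rose in 10 of 20 tested members and fell in 1, but from very different levels in the 2 media. Afp (alpha-fetoprotein), the main secreted protein of visceral endoderm, lies on chromosome 5, 90490737 to 90508907. It was at 0.156 (2iL d1), 0.119 (2iL d1.5), 0.553 (SL d1) and 2.21 CPM (SL d1.5) early and at 17.2 (2iL d5), 20.3 (2iL d7), 370 (SL d5) and 598 CPM (SL d7) late. The rise was 282-fold with the medium as a block, a log2 change of 8.14 ± 0.46 (adjusted p = 8.54e-05), and both late SL libraries stood above both late 2iL ones. Ttr (transthyretin) rose by 3.93 on the log2 scale (adjusted p = 0.00133). It went from 0 and 0.119 to 4.21 and 4.86 CPM from 2iL and from 5.16 and 15 to 77.9 and 109 CPM from SL. Its groups overlapped, since both late 2iL libraries lay below both early SL ones. Apoa1, an apolipoprotein, had a log2 change of 5.00 and reached 1.07 and 0.875 CPM from 2iL and 32.7 and 48.2 CPM from SL. Rbp4 (log2 change 4.45), the retinol carrier, and Fgb (log2 change 5.14), a fibrinogen chain, rose in the same way, each to over 10 CPM from SL only. Gata6, the factor that specifies primitive endoderm and is used again in mesoderm, did not pass the test (log2 change 0.44, adjusted p = 0.64): it went from 5.71 and 5.66 to 8.93 and 36 CPM from 2iL and from 44.9 and 33.7 to 15.9 and 20.5 CPM from SL, a fall that passed the test in the SL libraries alone (log2 change -1.11, adjusted p = 0.017). The summed level of the list was 614 to 4241 CPM early and 918 to 4692 CPM late. Its part in the changes of other genes was not tested.

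Neural and neuronal genes rose in 7 of 16 tested members and fell in 0. Nes (nestin), an intermediate filament of progenitors, was at 18.8, 16.9, 6.58 and 8.33 CPM early and at 238 (2iL d5), 71.8 (2iL d7), 167 (SL d5) and 83.6 CPM (SL d7) late (log2 change 3.59 ± 0.44, adjusted p = 5.61e-04). Map2, a microtubule protein of dendrites, rose from 0.749 to 4.3 CPM to 9.05 to 20.8 CPM (log2 change 2.45, adjusted p = 0.00329). The neural plate markers Sox1 and Pax6 did not pass the test (adjusted p = 0.151 and 0.679). Sox1 was at 3.07 to 5.52 CPM early and at 1.12 (2iL d5), 13.7 (2iL d7), 5.85 (SL d5) and 43.9 CPM (SL d7) late, so that its 2 day 7 libraries were the highest. Zic1 and En1, patterning factors of the neural tube and midbrain, had their highest level at SL day 7, at 32.7 and 21.5 CPM. The call of Zic1 (log2 change 4.29, adjusted p = 0.0312) was lost in 5 and that of En1 (log2 change 3.05, adjusted p = 0.0373) in 6 of the 8 fits without 1 library, with adjusted p up to 0.125 and 0.168.

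Keratins led the neural crest and surface ectoderm list, of which 6 of 10 tested members rose and 1 fell. Krt8, the type II keratin of simple epithelia, was at 5.93, 7.75, 35 and 28.6 CPM early and at 161, 421, 175 and 356 CPM late (2iL d5, 2iL d7, SL d5, SL d7), a log2 change of 4.23 ± 0.62 (adjusted p = 0.00107). Its partner Krt18 (log2 change 3.90) and Krt19 (log2 change 4.46) rose with it. Krt8, Krt18 and Krt19 are also made by endoderm and trophoblast. Sox10 and Sox9, crest factors, rose to at most 2.08 and 5.03 CPM, with log2 changes of 4.10 and 4.22 (adjusted p = 0.00425 and 0.00276), and Tfap2a did not pass the test (adjusted p = 0.278). Ets1, a factor of crest and endothelium, rose by 2.78 on the log2 scale (adjusted p = 0.0176, 0.0622 without the 2iL day 1.5 library). Of 7 tested trophoblast genes 4 rose and 1 fell. Cdx2, which serves trophoblast and the posterior embryo, rose from 0.0298 to 0.676 CPM to 4.97 (2iL d5), 30.5 (2iL d7), 2.17 (SL d5) and 10.4 CPM (SL d7), a log2 change of 5.6 (adjusted p = 0.00725). Krt7 rose by 4.95 on the log2 scale (adjusted p = 4.72e-04) and Ets2 by 0.79 (adjusted p = 0.00285). The trophoblast-defining Elf5 was at 0.335 CPM or less in every EB library, and Gata3 did not pass the test (adjusted p = 0.104).

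Germ cell genes were lower in 3 of 7 tested members and higher in 1. Dazl, an RNA-binding protein of germ cells, was at 58.7, 20.2, 37.7 and 19 CPM early and at 0.428, 0.334, 1.21 and 1.2 CPM late (log2 change -5.57 ± 0.61, adjusted p = 3.48e-04). Ddx4 (Vasa) peaked in between, at 24.4 CPM at 2iL day 2.5, and was 1.5 lower late than early on the log2 scale (adjusted p = 0.00512). Dnd1 fell by 1.25 (adjusted p = 0.017, 0.0503 without the SL day 1 library). Tfap2c, which trophoblast shares, rose by 2.57 (adjusted p = 8.07e-04), Prdm1 did not pass the test (adjusted p = 0.63), and Nanos3 was untested at under 1 CPM.

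Of 14 genes of cell adhesion and the epithelial-mesenchymal switch, 5 rose (35.7%, beside 29.1% of all genes tested), 0 fell and 9 did not pass the test. Cdh11, a mesenchymal cadherin on chromosome 8, 102632095 to 102785642, was at 0.874, 0.805, 0.738 and 0.781 CPM early and at 45.3 (2iL d5), 126 (2iL d7), 17.7 (SL d5) and 70.1 CPM (SL d7) late, an 80.7-fold rise (log2 change 6.33 ± 0.61, adjusted p = 2.36e-04). Cdh2 (N-cadherin) rose from 8.67 to 14.5 CPM to 42.2 to 135 CPM (log2 change 3.01, adjusted p = 8.59e-04). Zeb2, a repressor of epithelial genes, rose from 2.21 to 6.47 CPM to 47.4 to 103 CPM (log2 change 4.43, adjusted p = 1.95e-04). Cdh1 (E-cadherin) did not pass the test (log2 change -0.04, adjusted p = 0.929): it was at 320 to 391 CPM early, at 499 and 500 CPM at day 5, and at 136 and 240 CPM at day 7. Cldn6, a tight junction protein of embryonic epithelia, rose by 2.08 (adjusted p = 0.00173). Basement membrane and matrix genes rose in 9 of 18 and fell in 2. Col6a1 rose from 0 to 0.26 CPM to 1.62 to 11.6 CPM (log2 change 5.39, adjusted p = 0.00293), Col5a1 from 10.2 to 17.8 CPM to 24.3 to 125 CPM (2.20, adjusted p = 0.00505) and Fbn1 (fibrillin) from 2.9 to 6.21 CPM to 10.7 to 54.2 CPM (2.33, adjusted p = 0.00932). The type IV collagen chains Col4a1 and Col4a2 (1.44 and 1.74) and the laminin chain Lama4 (3.25) each lost their calls in 4 of the 8 fits without 1 library (adjusted p 0.0613 to 0.143), and Col2a1 did not pass the test (adjusted p = 0.0756).

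Of 7 genes for DNA methyltransferases and Tet enzymes, which write and remove DNA methylation, 5 were lower in late EBs and 1 was higher. Dnmt3l, the catalytically inactive partner of the de novo methyltransferases, was at 819, 835, 493 and 366 CPM early and at 6.84, 3.68, 25.5 and 26.7 CPM late (log2 change -5.63 ± 0.75, adjusted p = 7.44e-04). Tet1 (-2.42, adjusted p = 2.24e-04) and Tet2 (-3.02, adjusted p = 0.0015), which oxidise methylcytosine, fell while Tet3 rose from 14.3 to 20 CPM to 28.3 to 55.8 CPM (1.31, adjusted p = 0.00217). Dnmt1, the maintenance enzyme, fell by 0.44 (adjusted p = 0.00387). Of 6 genes of the Lin28 and let-7 axis, which holds early developmental timing, 5 rose and 0 fell. Hmga2, a chromatin protein and a let-7 target, dipped to 5.99 CPM at SL day 2.5 and 10.5 CPM at 2iL day 2 before it reached 280 and 150 CPM at day 7 (log2 change 2.87, adjusted p = 0.00487). Lin28b (1.80), Igf2bp3 (1.19) and Igf2bp2 (1.02) rose, and Igf2bp1 did not pass the test (adjusted p = 0.558).

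Imprinted genes rose in 10 of 23 tested members and fell in 0. Igf2, a growth factor expressed from the paternal allele, on chromosome 7, 142650766 to 142666816, was at 1.9, 2.03, 13.7 and 13 CPM early and at 11.7 (2iL d5), 908 (2iL d7), 65.2 (SL d5) and 391 CPM (SL d7) late. Its groups overlapped, since the 2iL day 5 library lay below both early SL ones, and the log2 change was 5.89 ± 1.55 (adjusted p = 0.0133). H19, its maternally expressed neighbour, was at 785 and 101 CPM at day 7 and did not pass the test (log2 change 2.55, adjusted p = 0.0938). Gnas (2.60, adjusted p = 1.96e-04), Ndn (2.46, adjusted p = 3.14e-04) and Sgce (2.78, adjusted p = 0.00187) rose without overlap, and Dlk1 did not pass the test (adjusted p = 0.0599).

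Antigen presentation genes rose in 6 of 9 members and fell in 0. B2m, the light chain of MHC class I, went from 3.68, 6.92, 15.6 and 17.6 CPM to 55.1, 106, 48.2 and 50.9 CPM (log2 change 2.76 ± 0.54, adjusted p = 0.00364). H2-K1 (1.91) and H2-D1 (1.16), class I heavy chains whose paralogs can share reads, and the peptide transporters Tap1 (1.88) and Tap2 (2.25) rose as well. Hypoxia genes did not move as a group: 4 of 16 rose (25.0%) and 5 fell (31.2%), close to the shares over all genes. Vegfa (2.43, adjusted p = 0.00559) and the glucose transporters Slc2a1 (1.33) and Slc2a3 (1.5) rose, and Pdk1 fell by 1.47 (adjusted p = 0.00115). Of 17 cell cycle genes 4 rose (23.5%) and 7 fell (41.2%), beside 29.1% and 26.9% of all genes tested. The inhibitors Cdkn1a (p21; 1.32, adjusted p = 0.00283) and Cdkn1b (p27; 1.59, adjusted p = 0.00216) rose, Ccne1 (cyclin E1) fell from 250 to 373 CPM to 36.4 to 86.2 CPM (-2.22, adjusted p = 4.82e-04), and Cdkn1c did not pass the test (adjusted p = 0.313). The calls of Ccnd2 (2.37, adjusted p = 0.023) and Cdkn2a (-1.80, adjusted p = 0.02) were lost in 5 and 2 of the 8 fits without 1 library (adjusted p 0.0513 to 0.0792).

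Of the retinoic acid genes 5 of 14 tested members rose (35.7%) and 3 fell (21.4%), beside 29.1% and 26.9% of all genes tested. Cyp26a1, the enzyme that degrades retinoic acid, rose from 0.437 and 0.477 CPM to 33.2 and 71.1 CPM from 2iL and from 11.4 and 21.7 CPM to 45.2 and 67.9 CPM from SL (log2 change 3.94, adjusted p = 0.0163, 0.0515 without the 2iL day 1.5 library). Crabp2 (1.99), which binds retinoic acid, rose, the receptor Rarg fell from 176 to 290 CPM to 29 to 67.3 CPM (-2.02, adjusted p = 6.70e-04), and Aldh1a2, the synthesising enzyme, did not pass the test (adjusted p = 0.588). Hox genes, the positional code that is switched on from the streak onward, were mostly too low to test: 26 of 39 were untested, 2 rose, 2 fell and 9 did not pass the test. Hoxb2 rose from 0.123 to 0.358 CPM to 0.523 (2iL d5), 13.8 (2iL d7), 0.353 (SL d5) and 1.77 CPM (SL d7), and Hoxb1 from 0.0936 to 0.865 CPM to 0.505 to 3.88 CPM, but these calls (adjusted p = 0.0203 and 0.0428) were lost in 4 and 6 of the 8 fits without 1 library (adjusted p 0.0511 to 0.126). Hoxd11 and Hoxd13 fell, from at most 1.28 and 3.43 CPM, with adjusted p = 0.0284 (lost in 5 fits, up to 0.0729) and 0.0147 (lost in 1, 0.0651).

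Xist, the RNA that silences the X chromosome in females, is on chromosome X, 103460366 to 103483254, and was at 2.09 (2iL d1), 25.9 (2iL d1.5), 4.67 (SL d1) and 4.36 CPM (SL d1.5) early. It was at 0.475 (2iL d5), 0.36 (2iL d7), 1.36 (SL d5) and 1.1 CPM (SL d7) late, so that every early library was higher than every late one and the 2iL day 1.5 library the highest. The log2 change was -3.45 ± 0.98 (adjusted p = 0.018), with adjusted p 0.0603 without the 2iL day 5 or 0.0542 without the 2iL day 7 library. Tsix, its antisense repressor, fell from 6.39 to 11.4 CPM to 0.623 to 1.69 CPM (-3.08, adjusted p = 4.05e-04), and Tsx, a neighbouring gene, from 4.3 to 10.1 CPM to 0.0772 to 0.303 CPM (-5.47, adjusted p = 2.39e-04). Jpx, a non-coding activator, rose by 1.68 (adjusted p = 0.00455) to at most 1.16 CPM. Ftx and Rlim, the other activators, were highest in between, Rlim at 860 CPM at 2iL day 3, and did not pass the test (adjusted p = 0.601 and 0.694).

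Over all genes, the 10 largest rises with a late mean of at least 20 CPM and no overlap included T, Afp and Acta2. Aplnr, the apelin receptor of early mesoderm, on chromosome 2, 85136225 to 85139923, was at 0.0312, 0.0596, 0.0615 and 0.13 CPM early and at 34.6, 109, 10.7 and 36 CPM late, a log2 change of 9.61 ± 0.84 (adjusted p = 1.94e-04). Frzb, a Wnt antagonist (6.91), and Pappa, a protease that frees insulin-like growth factors (7.68), are both secreted. Rgs5 (8.82), a pericyte regulator of G protein signals, and Unc5c (8.60), a netrin receptor, were highest at 2iL day 7, at 83 and 250 CPM. Pcdh7 (8.58), a protocadherin, and Zfp521 (7.48), a zinc finger factor of progenitors, were at 19.8 CPM or more in every late library. The 10 largest falls included Nr0b1. Hormad1, a meiotic chromosome protein on chromosome 3, 95559677 to 95587671, was at 49.1, 48.5, 23.7 and 21.1 CPM early and at 0.166, 0.129, 0.656 and 0.575 CPM late (log2 change -6.66 ± 0.62, adjusted p = 2.21e-04). Morc1 (-6.35), which represses transposons in the male germ line, and Nlrc4 (-6.61), an inflammasome sensor, fell as far. The homeobox genes Cphx1 (-7.65), Cphx3 (-7.58) and Cphx2 (-7.57) on chromosome 14, and the zinc finger genes Gm10324 (-6.78), Gm10323 (-6.53) and Zfp640 (-6.31), belong to families of near-identical copies whose reads can be shared, so the values of single copies are uncertain.

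The intermediate days showed when these changes came. Each called gene was given, in each medium, the first day from day 2 on at which it had passed the midpoint of its change on the log2(CPM + 0.5) scale. Of the genes called higher, 39.0% from 2iL and 33.5% from SL got there at day 5, and 4.98% and 4.57% at day 7. Of the genes called lower, 17.8% and 22.4% were past it by day 2, and 1.16% and 1.07% needed day 7. Both media gave the same day for 42.2% of the genes called higher and 40.7% of those called lower. Day 5 follows a longer gap than day 2.5 or day 3 and is itself part of the late mean. The share of genes at day 5 therefore does not measure how fast genes changed. Against early EBs, 17.9% of 16471 genes were higher at days 2.5 and 3 and 16.8% lower, and against late EBs 20.5% were lower and 20.9% higher (41.4% in either direction).

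**Figure D3:**
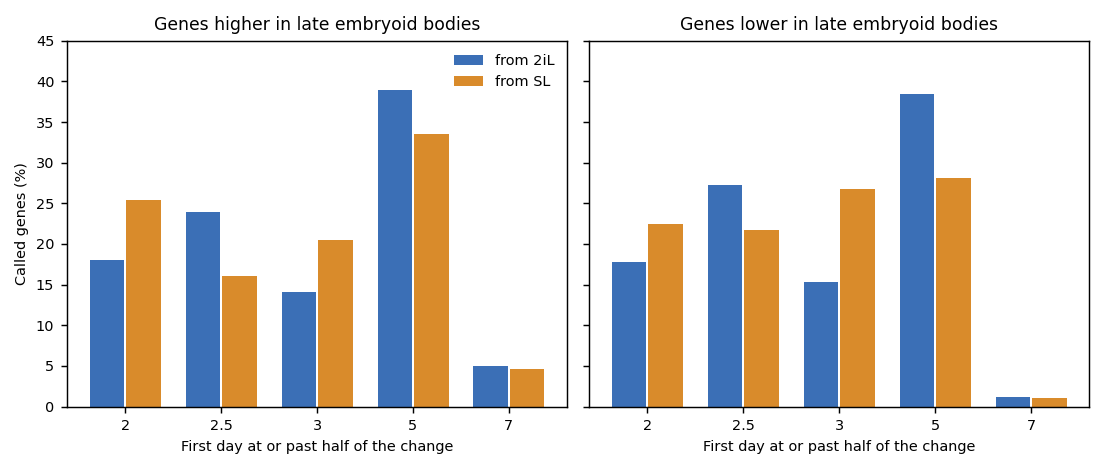
Percent of genes called higher and of genes called lower in late EBs by the first day at which they had passed the midpoint of their change, for EBs from 2iL and from SL. Day 5 holds the largest share in each of the 4 sets, from 28.1% (lower, SL) to 39.0% (higher, 2iL). It also follows a longer gap than day 2.5 or day 3 and is part of the late mean.

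The day of the midpoint varied among the gene lists. Of 15 called streak genes, 14 passed the midpoint at day 5 from 2iL and 9 from SL, and 14 of 18 were still lower at days 2.5 and 3 than late, against 2 higher and 2 lower than early. Of the 12 called ligands and inhibitors, 9 passed the midpoint at day 5 and 3 at day 7 from 2iL, and 4 and 5 from SL, and 13 of 16 were lower at days 2.5 and 3 than late. Of the endoderm genes 10 of 22 tested were already higher at days 2.5 and 3 than early and 0 lower. Of the 11 called late against early, 10 higher and 1 lower, 6 were past the midpoint by day 2 from 2iL and 3 from SL. Of all genes called higher, 18% from 2iL and 25.4% from SL were past it by then. Of the antigen presentation genes 8 of 9 were already higher at days 2.5 and 3 than early. Naive factors were lower than early in 9 of 13 at days 2.5 and 3 and still higher than late in 6, so that Zfp42, Esrrb and Nr0b1 passed both tests.

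Between day 5 and day 7 the change went on for some genes. In both media, 257 of the genes called higher (5.76%) rose further by log2 1 or more and 34 (0.762%) came back by as much, while 29 of those called lower (0.703%) fell further and 6 (0.145%) came back. Acta2, Bmp5 and Col1a2 went on rising in both media, and Cnn1 came back in both.

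The 2 media were then compared. On the log2(CPM + 0.5) scale 84.3% of genes tested had the same sign in EBs from 2iL and from SL, with Pearson's r of 0.88 across genes, which are not independent replicates, over 2 libraries a stage and medium. Changes from 2iL were wider, with an SD of 1.36 across genes against 1.07 from SL. An interaction of stage and medium passed the test in 10 of 15925 genes (0.0628%), 2 with a larger log2 change from 2iL (0.0126%) and 8 with a more negative one (0.0502%), all at an adjusted p of 0.0463 in edgeR, and 1655 had an unadjusted p under 0.05. DESeq2 called 162 in each direction. Without any of 6 of the 8 libraries edgeR called 0 in either direction. Without 2iL day 1.5 it called 2 higher and 1 lower, and without 2iL day 5 it called 26 higher and 38 lower. Single calls here were thus not stable, and the reason was not tested.

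Eif4g3, a translation initiation factor on chromosome 4, 137993022 to 138208508, went from 2.12 and 3.19 to 98.5 and 99 CPM from 2iL and from 28.4 and 22.5 to 105 and 115 CPM from SL, so that the late levels were alike and the early ones were not. Its log2 change was larger from 2iL by 3.14 ± 0.29. Slc39a8, a zinc transporter, differed in the same direction by 2.91, from 0.905 and 1.34 to 50.5 and 53.1 CPM against 16.3 and 20.4 to 107 and 122 CPM. The 8 other genes fell further from 2iL. Cyp2b23, a cytochrome P450, went from 52 and 44.6 to 0.594 and 0.566 CPM from 2iL and was at 0.505 to 2.09 CPM in the SL libraries (difference -5.19). Aass, an enzyme of lysine breakdown, went from 70.6 and 53.8 to 1.5 and 0.772 CPM from 2iL and from 5.22 and 6.25 to 2.72 and 3.59 CPM from SL (-4.88). Folr1, a folate receptor, went from 84.2 and 47.3 to 2.54 and 2.08 CPM from 2iL and was at 42.5, 39.7, 21.2 and 24.8 CPM from SL (-3.96). Aire (-4.06), known from thymic tolerance, and Trap1a (-3.45), a tumour antigen gene on the X chromosome, were high early in both media, and Hormad1 (-3.11), the non-coding RNA Lincenc1 (-2.70) and Mageb16 (-2.32) completed the list. Afp had the largest rise from SL of all genes in the plot of changes by medium, at 8.12 from SL and 4.91 from 2iL on the log2(CPM + 0.5) scale, and its interaction did not pass the test (adjusted p = 0.682).

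**Figure D4:**
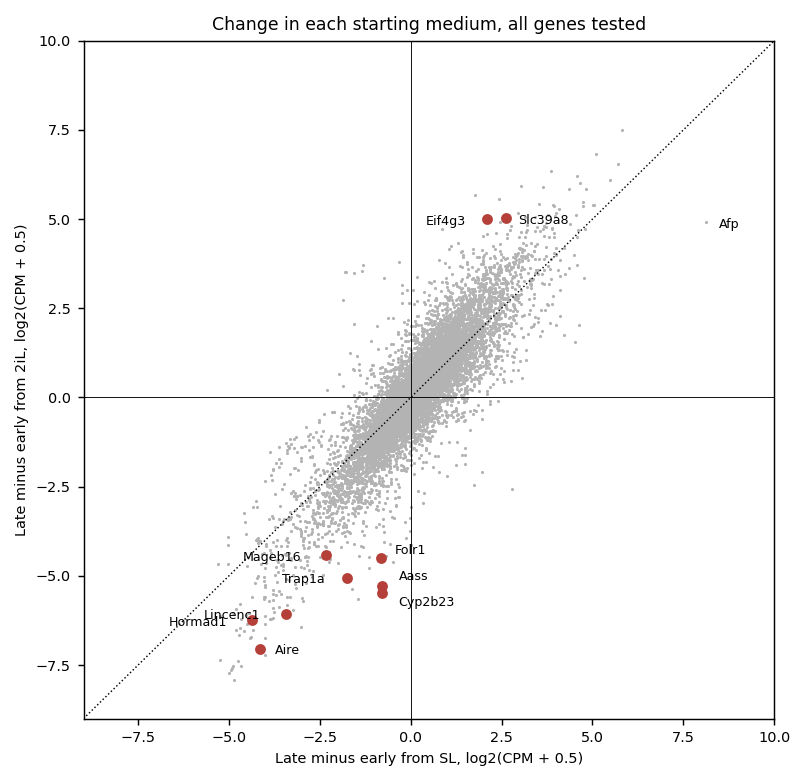
Late minus early change of each tested gene, as the difference of mean log2(CPM + 0.5), in EBs from SL (x axis) and from 2iL (y axis); the dotted line marks equal change and red points are the 10 genes whose interaction passed the test. Eif4g3 and Slc39a8 lie above the line and the other 8 below it, and Afp (not called) lies farthest to the right.

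The other differentiation conditions showed which changes went with the serum EBs. Each condition has early libraries of its own, and FA has 3 late libraries because FA day 5 from 2iL is not among the samples of the series. The change in EBs minus the mean of the changes in FA and N2B27 was positive in 316 of 16237 genes (1.95%) and negative in 522 (3.21%), together 5.16%. These counts moved by over 1.5 times without some EB libraries, to 169 and 286 without 2iL day 1.5, to 191 positive without 2iL day 1, to 284 negative without 2iL day 5 and to 200 and 315 without SL day 5. Streak genes were called positive in 4 of 18 and negative in 0. T was at 3.77, 9.45 and 8.96 CPM in late FA and 0.288 to 0.793 CPM in late N2B27, beside 41.5 to 350 CPM in late EBs, and the difference of changes was 7.12 ± 0.73 (log2, adjusted p = 3.08e-04). Mixl1 (5.56 ± 1.19, adjusted p = 0.0143) reached 7.95 CPM in 1 late FA library and was under 1 CPM in the other 6 late monolayer libraries. Afp was at 4.84 to 57.3 CPM in late N2B27 and at 0.99 to 6.93 CPM in late FA, beside 17.2 to 598 CPM in late EBs (4.30 ± 0.89, adjusted p = 0.0122). Aqp3, a water channel, was in the set because it fell in the monolayers, from 7.71 to 54.5 CPM to 1.74 to 6.32 CPM, while EBs went from 1.16 to 3.31 CPM to 3.35 to 11 CPM (4.41, adjusted p = 0.0037).

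Other genes had negative differences, Dcx and Nsg2 among them, which are neuronal. Dcx (doublecortin), a microtubule protein of migrating neurons, reached 123 CPM in N2B27 and 41.9 CPM in FA and at most 1.35 CPM in EBs (-5.13, adjusted p = 0.0415, lost in 7 of 8 fits without 1 EB library, 0.0583 to 0.115), although it was called higher in late EBs (1.51, adjusted p = 0.0271). Nsg2, a neuronal vesicle protein, was at 21.3 to 44.7 CPM in late N2B27 and 0.404 to 1.77 CPM in late EBs (-4.75, adjusted p = 0.00283). Megf10, a phagocytic receptor of glia, was at 18.5 to 69.5 CPM in the late monolayers and at most 2.54 CPM in EBs (-4.43, adjusted p = 0.0432, lost in 6 of 8 such fits, 0.0512 to 0.111). Anxa1 (annexin A1) rose to 26.6 to 42.8 CPM in late FA and 8.95 to 26.5 CPM in late N2B27, and in EBs was at 2.8 to 8.71 CPM early and 1.67 to 6.07 CPM late (-4.13, adjusted p = 0.00188).

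**Figure D5:**
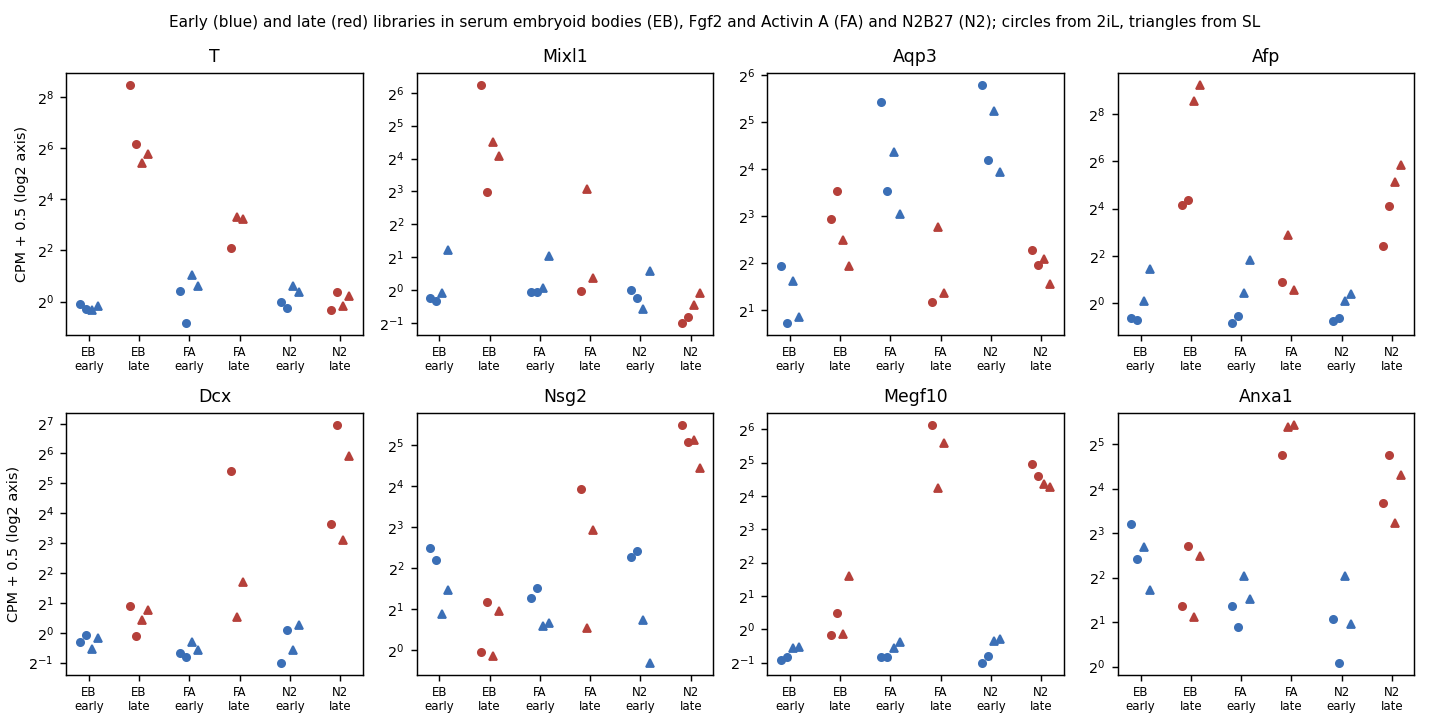
Levels (CPM + 0.5 on log2 axes) of 8 genes with large differences between the EB change and the mean change in FA and N2B27, in early and late libraries of EB, FA and N2B27; each point is 1 library, a circle from 2iL or a triangle from SL, blue for early and red for late. T is at 41.5 to 350 CPM in late EBs and at most 9.45 CPM in the late monolayers.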

How the data were processed

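Total RNA of male E14tg2a cells was cleared of ribosomal RNA and made into directional libraries. Per the processing notes, the authors aligned reads with TopHat2 to GRCm38 (mm10), counted them per gene with featureCounts and used DESeq2. The deposited values are raw counts, 1 table per library, and 0 columns belonged to other series. All 35372 genes entered the library totals behind the CPM values, and 34599 were matched by identifier to GENCODE M21 for positions. In the tests the library sizes came from the genes that passed the filter. Of 45 samples, 31 were used and grouped by medium, condition and day from their titles. Counting error is small at these depths (15204005 to 39804240 counts in the 8 libraries) for well expressed genes. It is not small for levels far below 1 CPM, which rest on few reads. The 12 pairs of libraries within a stage differed beyond sampling noise (chi-square per degree of freedom 32.58 to 142.06), so none was a repeat deposit.

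The main test was edgeR 4.0.16 in R 4.3.3 (TMM, filterByExpr, quasi-likelihood test, Benjamini-Hochberg over all genes tested, threshold 0.05) on the 8 libraries with the medium as a block. SEs are the log2 change divided by the square root of F. Tests of stage by medium, of EBs against FA and N2B27, and of days 2.5 and 3 used the same steps, which were tested on simulated data. The medium, which the titles give, was taken to pair the libraries. Deviations from the stage means correlated at 0.00088 to 0.315 within a medium and at -0.306 to -0.0117 across media (8 pairs each). Centring on the stage means ties these ranges together, so they are not separate evidence, and some pairs within a medium barely correlated. Alternatives were DESeq2 1.42.0, no filter, no replicate block, a spread from 14 EB libraries, each medium alone, day 7 against day 1, a test against a log2 fold change of 1, each library left out, and other pseudocounts and midpoints. Named genes were, of each of 26 lists, the first 3 members and the 4 called members with the largest change at 5 CPM or more. To these were added the 10 largest rises and falls without overlap at 20 CPM or more, the 5 largest differences each way between media and between conditions at 20 CPM or more, the Xist regulators, and any Hox gene. A few genes that the rule names are not reported here. The members and lists were chosen with earlier results of these data known.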

Additional observations from a re-analysis of the deposited data

Results flagged for a closer look

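In 364 groups of 4 libraries of the named genes, 7 held a library whose distance from the others passed Dixon's critical value, and chance gives about 1 in 20 (5% of groups). Early, Mixl1 was at 1.82 CPM at SL day 1.5 (others 0.298 to 0.43), Flt1 at 4.71 CPM at 2iL day 1.5 (1.89 to 2.18), Wt1 at 61.8 CPM at 2iL day 1.5 (52 to 53.3), Krt19 at 0.566 CPM at 2iL day 1.5 (1.4 to 1.63) and Igf2bp3 at 72.2 CPM at SL day 1 (94.4 to 98.4). Late, Igf2bp3 was at 175 CPM at SL day 5 (213 to 217) and B2m at 106 CPM at 2iL day 7 (48.2 to 55.1).

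The change from early to late differed between media in an interaction test (adjusted p = 0.0463 in edgeR for each) for Eif4g3 (3.14) and Slc39a8 (2.91), larger from 2iL, and for Cyp2b23 (-5.19), Aass (-4.88), Aire (-4.06), Folr1 (-3.96) and Trap1a (-3.45), more negative from 2iL, all as differences of log2 changes. Each of the 7 calls was lost in 6 or 7 of the 8 fits without 1 library, with adjusted p from 0.0542 to 0.407. The change in EBs differed from the mean change in FA and N2B27 for T (7.12), Mixl1 (5.56), Aqp3 (4.41) and Afp (4.30), and in the other direction for Dcx (-5.13), Nsg2 (-4.75), Megf10 (-4.43) and Anxa1 (-4.13). Of these 8, only Dcx and Megf10 lost their calls in fits without 1 EB library.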

How the results depend on the processing

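Late against early, 2iL libraries alone called 2747 genes higher and 2568 lower, SL libraries alone 2678 and 2530, day 7 against day 1 2210 and 1903, and the test against a log2 change of 1 1544 and 1161. These fits use fewer samples or a stricter limit. Without the replicate block (no pairing by medium) 4137 were higher and 3859 lower. By medium, DESeq2 called 162 and 162 and no filter 6 and 18. Leaving out each library gave 0 to 26 higher and 0 to 38 lower, the highest without 2iL day 5. Against FA and N2B27, DESeq2 called 682 and 889, and leaving out each library gave 169 to 450 higher and 284 to 656 lower, with 169 and 286 without 2iL day 1.5, 191 higher without 2iL day 1, 284 lower without 2iL day 5, and 200 and 315 without SL day 5. The cause was not tested. Of 161 named genes tested, 127 were called late against early and 105 stayed called without each library in turn. Genes not called in the full set changed sign. With SL alone the log2 change was -0.32 for Nanog, -0.71 for Bmp4, -1.11 for Gata6 (called there, adjusted p = 0.017), 0.96 for Pax6, 0.54 for Prdm1, 0.14 for Cdh1, 0.08 for Igf2bp1 and -0.12 for Ftx. With 2iL alone it was -0.31 for Otx2, 0.34 for Rlim and 0.17 for Hoxa10. Day 7 against day 1 gave -1.37 for Nanog (called there, adjusted p = 0.0286), -0.10 for Sall4, -0.40 for Otx2, 0.47 for Myh6, 0.22 for Pax6, 0.57 for Prdm1, 0.27 for Cdkn1c and 0.04 for Rlim. Without the block Gata6 was at -0.13. Leaving out each library gave -0.67 to 0.30 for Nanog, -0.19 to 0.35 for Otx2, -0.94 to 1.5 for Bmp4, -0.27 to 1.61 for Tal1, -0.35 to 0.10 for Myh6, -0.36 to 0.99 for Gata6, -1.50 to 0.18 for Pax6, -0.64 to 0.12 for Prdm1, -0.44 to 0.26 for Cdh1, -0.64 to 1.13 for Aldh1a2, -0.05 to 0.75 for Ftx, -0.36 to 0.08 for Rlim, -1.20 to 0.83 for Hoxa7, -1.12 to 1.29 for Hoxb4 and -0.77 to 1.95 for Hoxd4. Genes called higher that passed the midpoint at day 5 or 7 numbered 1960 from 2iL, and 1820 to 2677 with other pseudocounts or a linear midpoint; from SL these were 1697 and 1592 to 2300. Genes present at day 7 only were not testable after the filter.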

Other observations

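Some genes that the filter left untested were present at day 7 and at most at 0.343 CPM on every earlier EB day. Hand2, a bHLH factor of heart and limb mesoderm, was at 21.5 (2iL) and 2.44 CPM (SL) at day 7 and at most 0.202 CPM before. Pax3, a factor of the dorsal neural tube and somites, was at 4.68 and 8.67 CPM, and Postn (periostin), a fibroblast matrix protein, at 3.01 and 6.47 CPM. Hoxd8 was at 8.95 and 1.01 CPM and Hoxd9 at 7.31 and 0.766 CPM. Of all untested genes, 1 reached 5 CPM in both day 7 libraries, Hapln1, which binds hyaluronan in cartilage and heart matrix, at 22.9 and 5.84 CPM.

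A second set, chosen after the values were seen, dipped in the middle of the course and did not pass the late against early test. Zeb1, a repressor of epithelial genes, went from 22.5 and 15.7 CPM at day 1 to 1.68 and 1.65 CPM at day 3 and to 36.2 and 26.1 CPM at day 7 (2iL and SL). Vim (vimentin), a mesenchymal filament, went from 167 and 141 to 48.4 and 30.1 and to 292 and 216 CPM on the same days. Meis2, a partner of Hox factors, went from 57.6 and 9.04 to 2.88 and 1.65 and to 45 and 40 CPM. Others peaked in the middle. Dnmt3b, a de novo methyltransferase, was at 1052 and 1016 CPM at day 1, at 2969 and 2729 CPM at day 3 and at 241 and 554 CPM at day 7. Elavl3, a neuronal RNA-binding protein, went from 1.81 and 2.77 to 8.01 and 19.2 and to 0.746 and 1.96 CPM.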
